A study of Mus musculus with 6 samples.

Results

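The 10 genes described here are 4 cytokines of the interleukin-6 family (Il6, Il11, Osm and Lif), 4 receptor chains (Il6ra, Il6st, Osmr and Lifr), the transcription factor Stat3 and its feedback inhibitor Socs3. They were taken by gene symbol from a table of 34745 mouse genes, and each symbol matched 1 row. RNA was sequenced from tumours that grew after Hep1-6 cells, a mouse hepatoma line, were injected under the skin of C57BL/6J mice. Mice were fed a normal diet (ND, 3 tumours) or a high cholesterol diet (HCD, 3 tumours). All 6 tumours thus share 1 cell line, 1 mouse strain and the subcutaneous site, and the labels give no age or length of feeding. Nor do they say whether the tumours are from separate mice; if not, the p-values reflect a spread that may be technical. Triplets of values below are in order of replicate number, 1 to 3.

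Cytokines of this family signal through receptor complexes that contain gp130, the product of Il6st. Ligand binding activates JAK kinases, which phosphorylate STAT3, and STAT3 enters the nucleus and switches on genes that include Socs3, whose protein blocks further signalling from the receptor. In liver the pathway is best known for driving the acute phase response, in which hepatocytes secrete proteins such as haptoglobin and fibrinogen. These are steps of protein activity, and RNA levels measure none of them directly.

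Values are FPKM, fragments scaled to the length of the gene and the size of the library. The value steps implied libraries of 20351637 to 26228073 fragments, and between 11495 and 12050 genes reached 1 FPKM. The hepatoma marker Alb (serum albumin) ranged from 1176 to 1672 FPKM and Afp (alpha-fetoprotein) from 109 to 197 FPKM. The hepatocyte genes Apoa2 and Serpina1a stayed at or below 0.415 FPKM in each library. The summed level of 6 skeletal muscle markers, led by Acta1 and Ckm, was 628 FPKM in ND 2 and 739 FPKM in HCD 1, 71.1 FPKM in HCD 2 and 4.64 to 10.8 FPKM in the other 3 libraries, so results are also given without ND 2 and HCD 1. In bulk tissue, fewer cells of a type and less RNA per cell cannot be told apart.

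The 250 bases before the RefSeq transcription start (build GRCm38.p6) were found for 9 of the 10 genes; Osm was not matched. They were searched on both strands for TTCNNNGAA, the core of sites that STAT proteins bind, and for TGANTCA, the core of AP-1 sites. Each motif reads the same on both strands, and no window below holds both. TTCNNNGAA occurred in 7.02% of 32851 mouse promoter windows of this length and TGANTCA in 6.75%. Among the 9 genes TTCNNNGAA occurred in Socs3 alone, and TGANTCA in Il6, Lif and 1 of the 2 start sites of Il11. The 4 windows with a match are shown because they belong to the family's feedback inhibitor and to 3 of its 4 cytokines; capitals mark the motif, read 5′ to 3′ on the gene's own strand.
Socs3 (chr11:117969367-117969616, minus strand): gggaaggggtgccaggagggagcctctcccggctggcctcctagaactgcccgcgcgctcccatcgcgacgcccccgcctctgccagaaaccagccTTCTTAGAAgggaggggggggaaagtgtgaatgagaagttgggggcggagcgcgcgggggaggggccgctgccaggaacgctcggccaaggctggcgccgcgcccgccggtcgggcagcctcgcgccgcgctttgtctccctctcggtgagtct
Il6 (chr5:30012864-30013113, plus strand): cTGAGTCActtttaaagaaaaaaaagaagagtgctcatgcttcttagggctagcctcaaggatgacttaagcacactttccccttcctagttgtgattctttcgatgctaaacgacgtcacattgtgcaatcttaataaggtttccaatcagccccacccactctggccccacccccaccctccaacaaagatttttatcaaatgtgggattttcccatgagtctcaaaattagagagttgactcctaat
Il11 (chr7:4778142-4778391, minus strand): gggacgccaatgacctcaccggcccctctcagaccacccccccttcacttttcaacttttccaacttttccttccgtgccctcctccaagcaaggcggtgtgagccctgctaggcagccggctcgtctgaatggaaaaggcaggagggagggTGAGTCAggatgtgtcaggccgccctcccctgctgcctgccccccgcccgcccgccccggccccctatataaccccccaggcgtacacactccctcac
Lif (chr11:4257318-4257567, plus strand): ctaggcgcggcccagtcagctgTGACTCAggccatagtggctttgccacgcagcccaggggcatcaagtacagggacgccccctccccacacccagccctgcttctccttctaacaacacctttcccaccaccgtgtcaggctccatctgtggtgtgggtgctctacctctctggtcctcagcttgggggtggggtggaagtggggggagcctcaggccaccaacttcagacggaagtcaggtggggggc
The Socs3 match, TTCTTAGAA, begins 154 bases before the start. The Il11 match lies closer to its start, at 98 bases, and the Lif and Il6 matches at 228 and 249 bases. A match is a description of the letters and not evidence of binding.

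Across the 6 tumours Socs3, Stat3 and the receptor chains other than Osmr had higher mean levels than each of the 4 cytokines. Mean levels were 22.4 FPKM for Socs3, 20.2 for Lifr, 11.1 for Stat3, 9.14 for Il6st, 6.01 for Il6ra, 4.57 for Lif, 2.53 for Osmr, 1.78 for Il11, 1.09 for Osm and 0.402 for Il6. Neighbours in this order did not separate for Socs3 and Lifr, for Stat3 and Il6st, or along the run from Osmr through Il11 and Osm to Il6, where the ranges over libraries overlapped. Stat3 nevertheless lay above Il6st in each of the 6 libraries, and Lif lay above Osmr with no overlap (3.74 to 5.35 against 1.91 to 2.91 FPKM).

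The gene length behind these values affects comparisons between genes. For 67.3% of genes with recovered whole reads the length that made the values whole equalled the sum of all distinct exons in GENCODE M21, in which overlapping exons are counted repeatedly. For Stat3 that length was 15739 bases against 9527 bases of merged exons, and for Il6st 17535 against 11099 bases. Rescaled to merged exons, a choice made after seeing the data, Stat3 was at 18.3, Il6st at 14.4 and Il6 at 0.676 FPKM. The order of the 10 genes was the same on both scales, but the range of Stat3 (16.6 to 20.7) then overlapped that of Lifr (19.6 to 27.2 FPKM). The ratio of FPKM values of 1 gene between tumours does not depend on this length. The main tests between diets below do, because they add 1 to each FPKM value and leave out genes with low means. Il6 lay below the level for testing at 0.402 FPKM and would lie above it at 0.676 FPKM. The tests were not repeated on merged exons.

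**Figure D1:**
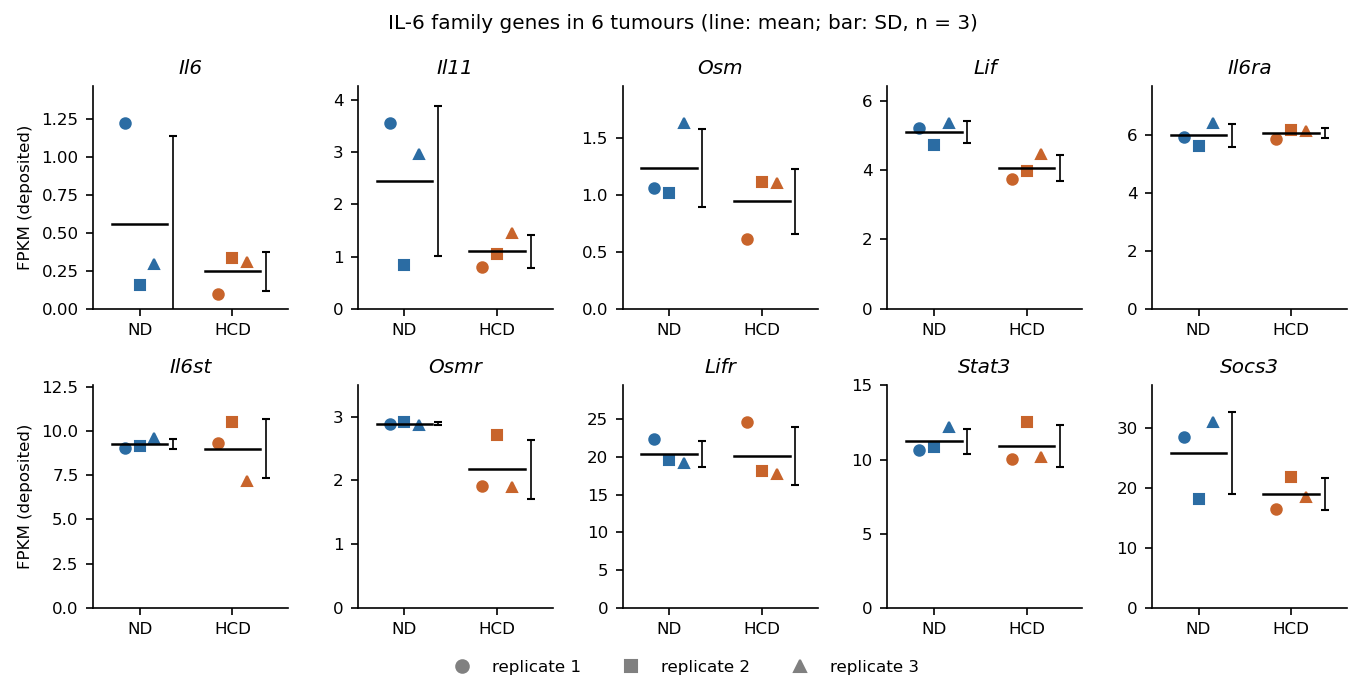
Deposited FPKM of the 10 genes in each tumour, ND in blue and HCD in orange, with the mean as a line and the SD as a bar (n = 3); marker shapes give replicate numbers, and the lower end of the Il6 ND bar falls below 0 and is not drawn. The 3 ND values of Lif and of Osmr lie above all 3 HCD values, while ND 2 sits among the HCD tumours for Socs3 and Il11.

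No family gene passed the test between diets, which addresses what a cholesterol-rich diet changes in tumour RNA. Limma on log2(FPKM + 1), with Benjamini-Hochberg adjustment over 13417 genes averaging 0.5 FPKM or more, called 0 genes in all (0% of those tested). Before adjustment 789 (5.88%) had a p under 0.05, 3.32% lower and 2.56% higher in HCD. Of the 10 family genes 9 were tested, and 2 of them, Lif and Osmr, had such a p, both lower in HCD; Il6 lay below the level for testing. Each difference below is the HCD mean minus the ND mean of log2(FPKM + 1), a scale that shrinks changes at low levels.

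Lif, leukaemia inhibitory factor, signals through the LIF receptor paired with gp130 and is the most abundant of the 4 cytokines here. It was at 5.20, 4.72 and 5.35 FPKM under ND against 3.74, 3.97 and 4.46 FPKM under HCD. Each ND tumour lay above each HCD tumour, with means of 5.09 ± 0.328 and 4.06 ± 0.366 FPKM (SD, n = 3). The log2 difference was -0.27 (SE 0.081, 95% interval -0.47 to -0.07, limma adjusted p = 0.794, unadjusted p = 0.0146). The values rest on 338 to 550 reads a library. Exact Poisson 95% intervals, which cover counting error only, overlapped for ND 2 (4.34 to 5.13 FPKM) and HCD 3 (4.04 to 4.91 FPKM). The difference ranged from -0.33 to -0.22 with each library left out.

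Il11, interleukin-11, is a gp130 cytokine made mainly by stromal and epithelial cells. It was at 3.56, 0.833 and 2.97 FPKM under ND against 0.800, 1.05 and 1.44 FPKM under HCD. ND 1 and ND 3 were the 2 highest tumours, and ND 2 lay among the HCD values. On the log2 scale the diets differed by -0.63 (SE 0.35, 95% interval -1.47 to 0.22, limma adjusted p = 0.794). The difference was -1.03 without ND 2, with an adjusted p of 0.396, and -0.37 without ND 1. With 41 to 205 reads a library, the exact Poisson 95% intervals of ND 1 (3.09 to 4.08 FPKM) and ND 2 (0.628 to 1.08 FPKM) did not overlap. Such intervals cover counting error only.

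Il6, the founding member of the family, was scarce. It was at 1.22, 0.159 and 0.297 FPKM under ND against 0.0962, 0.336 and 0.304 FPKM under HCD. ND 1 stood alone, with 114 reads against 8 to 28 in the other 5 libraries. The difference of the untested log2 means was -0.27, and 0.02 without ND 1. With no filter on low values Il6 was tested and had an adjusted p of 0.865 in limma. HCD 1 had the lowest value, with an exact Poisson 95% interval of 0.0415 to 0.190 FPKM.

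Osm, oncostatin M, is made chiefly by myeloid cells and T cells. It was at 1.06, 1.02 and 1.63 FPKM under ND against 0.616, 1.11 and 1.11 FPKM under HCD. The groups overlapped, with ND 3 the highest and HCD 1 the lowest tumour. The log2 difference was -0.20 (SE 0.161, 95% interval -0.59 to 0.19, limma adjusted p = 0.805). It was -0.08 without ND 3 and -0.07 without HCD 1. Osm and Lif lie close together on chromosome 11 (4236420 to 4241026 and 4257557 to 4272514, GRCm38).

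Osmr, the receptor chain that pairs with gp130 to bind oncostatin M, had nearly equal values in the ND tumours. It was at 2.89, 2.91 and 2.88 FPKM under ND against 1.91, 2.71 and 1.91 FPKM under HCD. The ND values lay closer together than counting error, which was 3.02% to 3.43% of each, so their closeness does not measure how stable the gene is. The groups did not overlap, and HCD 2 lay close to the ND tumours. The exact Poisson 95% intervals of HCD 2 (2.53 to 2.91 FPKM) and ND 3 (2.69 to 3.08 FPKM) overlapped. On the log2 scale the diets differed by -0.30 (SE 0.112, 95% interval -0.58 to -0.03, limma adjusted p = 0.794, unadjusted p = 0.0341). The difference was -0.42 without HCD 2 and -0.24 without HCD 3. Lif and Osmr were thus the 2 of 9 tested family genes whose groups did not overlap with HCD lower. Among all tested genes 6.13% did so in that direction, and 12.1% in either direction.

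The other 3 receptor chains overlapped between diets. Lifr, which binds LIF, was at 22.4, 19.6 and 19.2 FPKM under ND against 24.6, 18.1 and 17.7 FPKM under HCD. HCD 1 was the highest tumour, while the other HCD tumours were the lowest. Its log2 difference was -0.03 (95% interval -0.36 to 0.30, limma adjusted p = 0.966), -0.17 without HCD 1, and above 0 without ND 1, HCD 2 or HCD 3 (0.04, 0.04 and 0.05). Lifr and Osmr both lie on chromosome 15 (7090614 to 7197489 and 6813577 to 6874969, GRCm38). The ratio of Lifr to Osmr was 12.9 in HCD 1 and 9.29 in HCD 3, against 6.66 to 7.74 in the other 4 libraries.

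Il6st, which encodes the shared chain gp130, was at 9.03, 9.18 and 9.61 FPKM under ND against 9.34, 10.5 and 7.19 FPKM under HCD. HCD 2 held the highest and HCD 3 the lowest value, so the ND tumours lay inside the HCD range. The log2 difference was -0.05 (95% interval -0.36 to 0.25, limma adjusted p = 0.928), and 0.09 without HCD 3.

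Il6ra, which encodes the chain that binds interleukin-6 itself, varied least of the 10 genes, with a coefficient of variation of 4.56% over the 6 libraries. It was at 5.92, 5.62 and 6.40 FPKM under ND against 5.85, 6.15 and 6.14 FPKM under HCD. The HCD tumours lay inside the ND range. On the log2 scale the diets differed by 0.01 (95% interval -0.14 to 0.17, limma adjusted p = 0.964), with a sign that turned without ND 2 (-0.02). A gene on the opposite strand, Gm42809, shares 242 exon bases with Il6ra, and reads from the 2 cannot be told apart without strand information.

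Stat3, the transcription factor downstream of these receptors, was at 10.6, 10.9 and 12.2 FPKM under ND against 10.0, 12.5 and 10.2 FPKM under HCD. ND 3 and HCD 2 were the highest tumours, and the groups overlapped. The log2 difference was -0.04 (95% interval -0.28 to 0.20, limma adjusted p = 0.925), with a sign that turned without ND 3 or HCD 1 (0.01 each). Stat3 shares 72 exon bases with Stat5a on the opposite strand.

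Socs3, the feedback inhibitor induced by STAT3, was at 28.5, 18.1 and 30.9 FPKM under ND against 16.5, 21.8 and 18.6 FPKM under HCD. ND 1 and ND 3 stood above the other 4 tumours, and ND 2 was the second lowest. ND averaged 25.8 ± 6.82 FPKM (SD, n = 3), and HCD 19.0 ± 2.68 FPKM. On the log2 scale the diets differed by -0.40 (SE 0.21, 95% interval -0.91 to 0.11, limma adjusted p = 0.794). The difference was -0.63 without ND 2, with an adjusted p of 0.516, and -0.26 without ND 3. The ratio of Socs3 to Stat3 was 2.68 and 2.53 in ND 1 and ND 3 and 1.65 to 1.82 in the other 4 libraries.

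**Figure D2:**
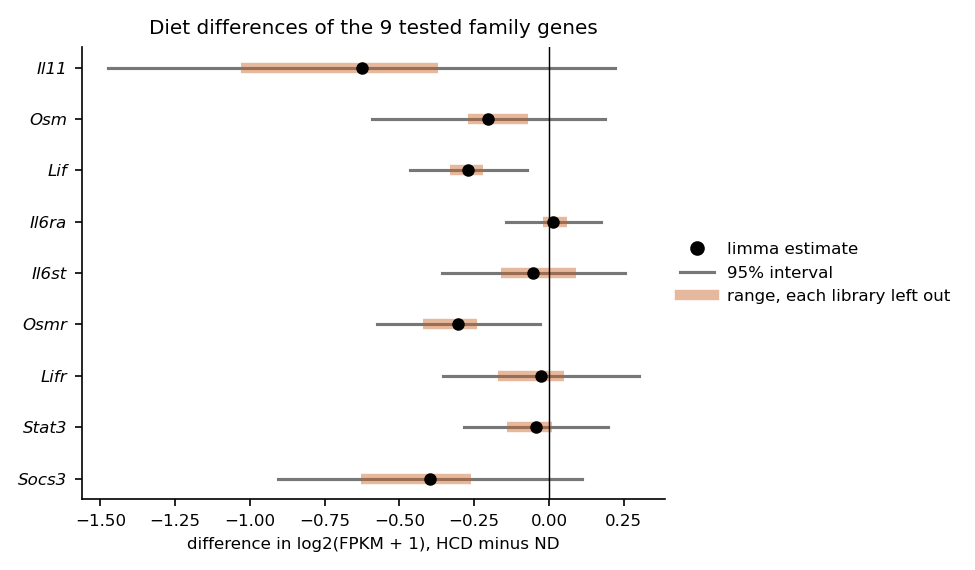
Differences between diets (HCD minus ND, log2(FPKM + 1)) for the 9 tested genes, with the limma estimate as a point, its 95% interval as a thin line and the range of estimates with each library left out as a thick band. The intervals of Lif (-0.47 to -0.07) and Osmr (-0.58 to -0.03) lie below 0 before adjustment, and no gene passed after adjustment.

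As a description, 8 of the 9 tested family genes had a lower mean in HCD, with a median difference of -0.20. Among the 8, Il6st, Lifr and Stat3 differed by -0.05, -0.03 and -0.04, with signs that turned when single libraries were left out. Over all tested genes the means of 44.3% were lower and the median difference was 0.02. ND 2 and HCD 1 were the tumours with the most muscle RNA. Without them the differences were -0.54 for Socs3, -0.93 for Il11, -0.27 for Lif and -0.24 for Osmr. They were -0.14 for Osm, -0.20 for Lifr, -0.09 for Il6st, -0.01 for Stat3 and -0.002 for Il6ra. The lowest adjusted p of the family was then 0.652 (limma, 2 libraries a group).

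Socs3 was compared with each of the 4 cytokines over the 6 libraries on the log2(FPKM + 1) scale. Pearson's r was 0.92 for Il11 (exact permutation p = 0.0236, adjusted over the 4 cytokines 0.0556), with a Spearman rho of 0.89 (exact permutation p = 0.0333, adjusted 0.117). Without ND 1 and ND 3, the 2 tumours farthest from the median of Il11, r was 0.37 over the 4 left, whose Il11 values span a narrower range. For Osm r was 0.77 (exact permutation p = 0.0278, adjusted 0.0556) with rho 0.83 (p = 0.0583, adjusted 0.117), and r was 0.10 without ND 3 and HCD 1. For Lif r was 0.78 (exact permutation p = 0.0806, adjusted 0.107) with rho 0.77 (p = 0.103, adjusted 0.137), and for Il6 r was 0.65 (exact permutation p = 0.119, adjusted 0.119) with rho 0.66 (p = 0.175, adjusted 0.175). Without the 2 farthest tumours, ND 3 and HCD 1 for Lif and ND 1 and HCD 1 for Il6, r was 0.46 and 0.43. None of the 4 passed after adjustment. After each diet's mean was subtracted, r was 0.87 for Il11, 0.68 for Osm, 0.62 for Lif and 0.56 for Il6. With the 2 farthest tumours then left out, r was 0.62 for Il11, 0.52 for Osm, 0.89 for Lif and 0.08 for Il6. Over 6 libraries, or the 4 left, these values do not settle whether Socs3 and the cytokines vary together.

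**Figure D3:**
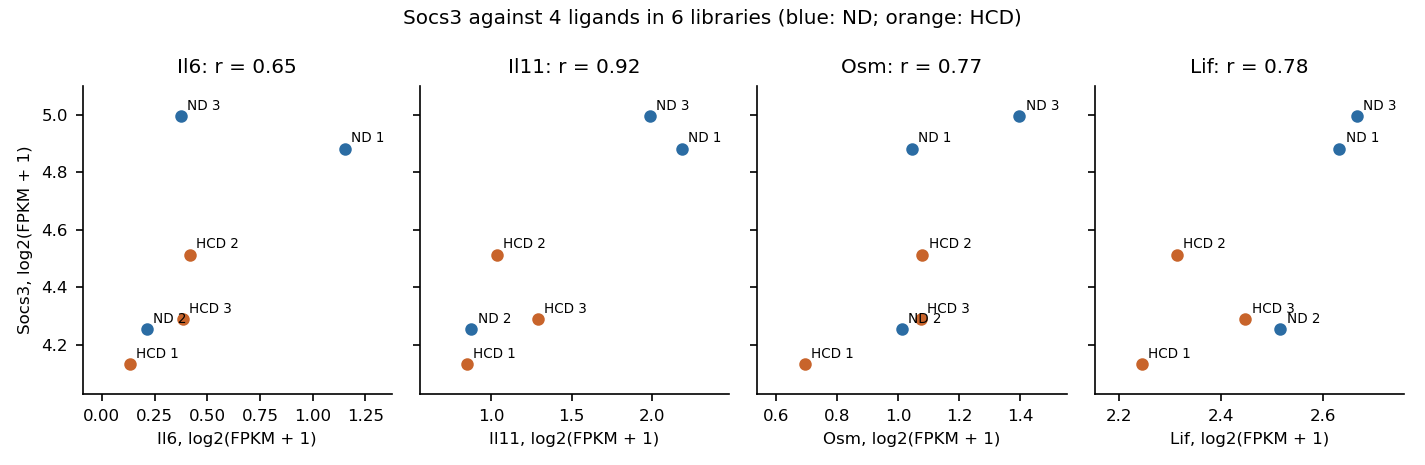
Socs3 against Il6, Il11, Osm and Lif, each on the log2(FPKM + 1) scale, with 1 point per library (ND blue, HCD orange) and Pearson's r above each panel. The panels share the Socs3 axis, on which ND 1 and ND 3 lie above the other 4 libraries. Along the cytokine axes they hold the highest values for Il11 and Lif only. ND 1 lies below HCD 2 for Osm (1.06 against 1.11 FPKM), and ND 3 below HCD 2 for Il6 (0.297 against 0.336 FPKM).

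The genes whose pattern over the 6 libraries was most like that of Socs3, among 6684 named genes averaging 5 FPKM or more, were Angptl4 (r = 0.995), Nlrc4 (0.994), Fbxo11 (0.992), Tiparp (0.989) and Gpbp1l1 (0.987). Angptl4, which encodes a secreted inhibitor of lipoprotein lipase, was at 6.70, 4.59 and 7.47 FPKM under ND against 4.28, 5.66 and 4.83 FPKM under HCD. Those most like Il6 were Gtf2h1 (0.991), Cd248 (0.977), Copb1 (0.976), Smarca2 (0.975) and Selk (0.968), each highest in ND 1. These are descriptions over 6 libraries, with no test.

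Of the other cytokines of the family, 5 of 7 were tested, with means higher under HCD for 3 and lower for 2 (median 0.15, and -0.01 without HCD 2). None was called. Clcf1, a cytokine that signals through gp130 and the LIF receptor, ranged from 7.70 to 9.40 FPKM and differed by -0.02. Il27 and Ebi3, the 2 subunits of interleukin-27, differed by 0.48 and 0.22. HCD 2 held the top value of both, 3.12 and 2.38 FPKM, and ND 1 the bottom one, 0.514 and 0.673 FPKM. Ctf1 had a mean of at most 0.0262 FPKM in either diet, and Il31 was listed at 0 in each library.

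Of 4 other receptor genes 2 were tested, Il11ra1 and Il27ra, with differences of 0.04 and 0.47 (limma adjusted p = 0.951 and 0.794). Il11ra1, the receptor chain specific to interleukin-11, ranged from 2.22 to 3.30 FPKM. It has near-identical copies in the mouse genome, so its level is uncertain. Il27ra was again lowest in ND 1 (0.477 FPKM) and highest in HCD 2 (2.65 FPKM). The T cell markers, led by Trac and Cd3g, were likewise lowest in ND 1 and highest in HCD 2, with summed levels over 7 genes from 6.96 to 30.4 FPKM in ND and 21.5 to 51.8 FPKM in HCD. The summed level of 8 macrophage markers, led by Lyz2 and C1qa, was also lowest in ND 1 and highest in HCD 2, at 255 to 608 FPKM in ND and 419 to 1010 FPKM in HCD, although Mrc1 alone was lowest in HCD 3. So was the summed level of 7 endothelial markers, led by Plvap and Esam, at 50.9 to 64.8 FPKM in ND and 62.3 to 111 FPKM in HCD. Among these, Cdh5 alone was lowest in ND 2 (11.1 FPKM, against 12.6 FPKM in ND 1). No marker of these 3 lists was at 0 throughout. Socs1 and Batf, described below, were also lowest in ND 1 and highest in HCD 2. The part of T cell, macrophage and endothelial RNA in the values of these 5 genes was not tested.

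Among the kinases, STATs and adaptors all 9 were tested, with means higher under HCD for 7 and lower for 2 (median 0.05), and none was called. Jak2, a kinase bound to gp130, was far above Jak1 in each library. It was at 92.2, 74.9 and 101 FPKM under ND against 71.0, 83.0 and 82.2 FPKM under HCD (difference -0.17). Jak1, the other main kinase of gp130, ranged from 14.7 to 18.8 FPKM and differed by 0.05. Gab1, a docking protein, differed by 0.20, and Grb2, an adaptor to the Ras pathway, by 0.04. Stat5b, chosen after its values were seen, was the 1 gene of this list whose groups did not overlap, with HCD higher (difference 0.17, limma adjusted p = 0.794); 5.98% of all tested genes did so in that direction.

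Of 9 other inhibitors 8 were tested, with means higher under HCD for 5 and lower for 3 (median 0.12), and none was called. Socs1, which is related to Socs3 and restrains interferon signalling, was at 9.0, 12.8 and 12.3 FPKM under ND against 13.4, 18.3 and 11.8 FPKM under HCD. Unlike Socs3 it was lowest in ND 1, and its difference was 0.32 (limma adjusted p = 0.794). Socs2, a feedback inhibitor of growth hormone signalling, differed by -0.17, and the phosphatase genes Ptpn1 and Ptpn2 by 0.15 and -0.04. The 4 genes of receptor shedding differed little, with 3 means higher and 1 lower (median 0.04, and -0.04 without HCD 2): Adam10 by -0.06, Adam17 by 0.06 and Rhbdf2 by 0.07.

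**Figure D4:**
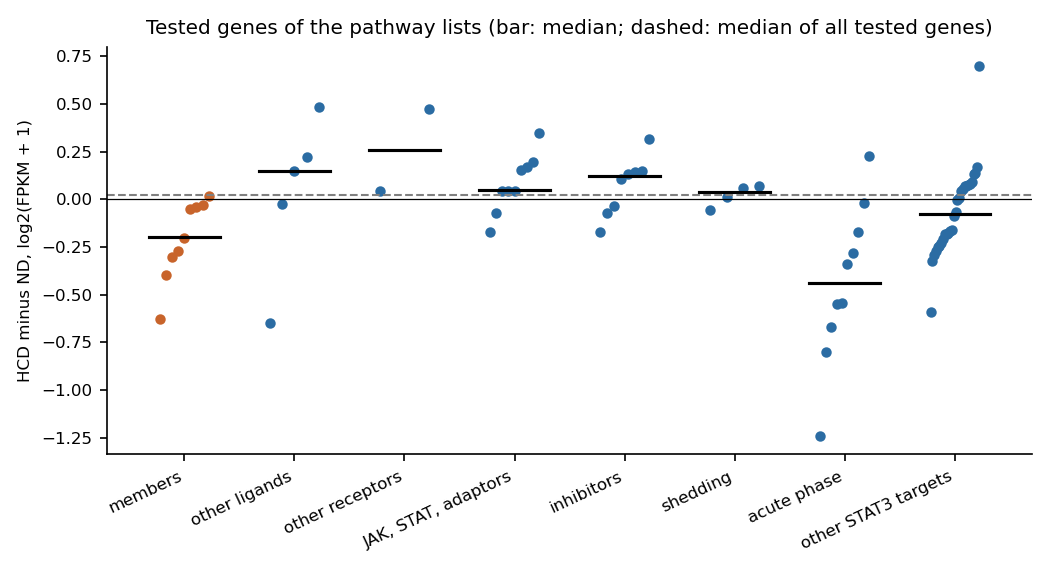
Differences between diets (HCD minus ND, log2(FPKM + 1)) for each tested gene of the family and of 7 pathway lists, with the list median as a bar and the median of all tested genes (0.02) as a dashed line. The acute phase genes lie lowest, with a median of -0.44, the family (-0.20) and the other STAT3 targets (-0.08) also have medians below 0, and the remaining 5 lists have medians above 0; without HCD 2 the medians of the other ligands (-0.01) and of the shedding genes (-0.04) turn below 0.

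Genes of the hepatic acute phase response were mostly below the level for testing, and most of those tested had lower means in HCD. Of 22 genes 10 were tested, 1 with a higher and 9 with a lower mean, at a median difference of -0.44. None was called, and the median was -0.72 without ND 2, -0.77 without ND 2 and HCD 1, -0.29 without ND 3 and -0.22 without HCD 3. With no filter on low values, which adds genes at very low levels, it was -0.08. Saa3, an inducible serum amyloid A made outside the liver as well, was at 18.4, 1.08 and 14.5 FPKM under ND against 3.24, 4.89 and 0.900 FPKM under HCD (difference -1.24, limma adjusted p = 0.797). A2m, a protease inhibitor, was at 7.39, 1.48 and 6.74 FPKM under ND against 2.04, 2.33 and 2.00 FPKM under HCD (difference -0.80, limma adjusted p = 0.794). As for Socs3 and Il11, ND 1 and ND 3 held the 2 highest values, and ND 2 lay low.

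Hp, which encodes haptoglobin, was at 15.8, 9.11 and 14.6 FPKM under ND against 9.07, 10.3 and 4.77 FPKM under HCD (difference -0.67, limma adjusted p = 0.794). Fgb, a fibrinogen chain, differed by -0.34 and Lbp, which binds bacterial lipopolysaccharide, by -0.02. Hpx, which encodes the haem carrier haemopexin, was the 1 tested gene of the list with a higher mean (difference 0.23). Saa1 and Apcs were listed at 0 in each library, and the C-reactive protein gene Crp stayed at or below 0.0319 FPKM. Fgl1, chosen after its values were seen, was the 1 of 10 tested acute phase genes whose groups did not overlap, at 3.53 to 4.80 FPKM in ND and 1.82 to 3.20 FPKM in HCD. That share is near the background, since 6.13% of all tested genes did so with HCD lower and 12.1% in either direction.

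Other known STAT3 targets were divided. Of 29 genes 28 were tested, 12 with a higher and 16 with a lower mean (median -0.08), and none was called. Mcl1 and Ccnd1, which encode a survival factor and cyclin D1, were abundant and differed by 0.07 and 0.01. Junb, an AP-1 subunit, was at 153, 92.4 and 132 FPKM under ND against 96.6, 101 and 96.3 FPKM under HCD (difference -0.33, limma adjusted p = 0.794). Lcn2, which encodes lipocalin-2, was at 1.35, 0.274 and 1.83 FPKM under ND against 0.515, 0.241 and 0.324 FPKM under HCD (difference -0.59). Batf, a transcription factor of lymphocytes, had a difference of 0.70, with each ND tumour below each HCD tumour (limma adjusted p = 0.794); as above, 5.98% of all tested genes did so.

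The summed level of neutrophil markers, like Socs3, Il11, Saa3 and A2m, was high in ND 1 and ND 3 and lower in the other 4 libraries. All 7 tested markers of 8 had a lower mean in HCD (none called), and the summed level of the 8 was 119, 53.2 and 116 FPKM under ND against 49.4, 49.7 and 52.9 FPKM under HCD. S100a9 and S100a8, which lead the sum, were at 61.2 and 16.7 FPKM in ND 1 and at 19.1 and 5.50 FPKM in ND 2. S100a9, S100a8, Cxcr2, Csf3r and Il1r2 were highest in ND 1 and ND 3. Mmp9 and Retnlg went otherwise. Mmp9 was lower in ND 3 (8.27 FPKM) than in ND 2 (9.05 FPKM) and HCD 3 (10.1 FPKM). Retnlg was lower in ND 1 (5.83 FPKM) than in HCD 1 (6.38 FPKM). The defining marker Ly6g was at 0 in HCD 2 and at most 1.12 FPKM elsewhere, in HCD 3. The part of neutrophil RNA in these results was not tested. Fibroblast markers (7 genes, led by Dcn and Col1a1) summed to 917 to 1120 FPKM in ND and 830 to 1030 FPKM in HCD. Dcn, at 682.5 to 914.4 FPKM, made up most of each sum. It was lowest in HCD 2, where each other marker of the list was highest, with Col1a1 at 93.2 FPKM. Adipocyte markers (5 genes, led by Fabp4 and Cfd) summed to 8.09 to 14.7 FPKM in ND and 5.47 to 23.5 FPKM in HCD.

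**Figure D5:**
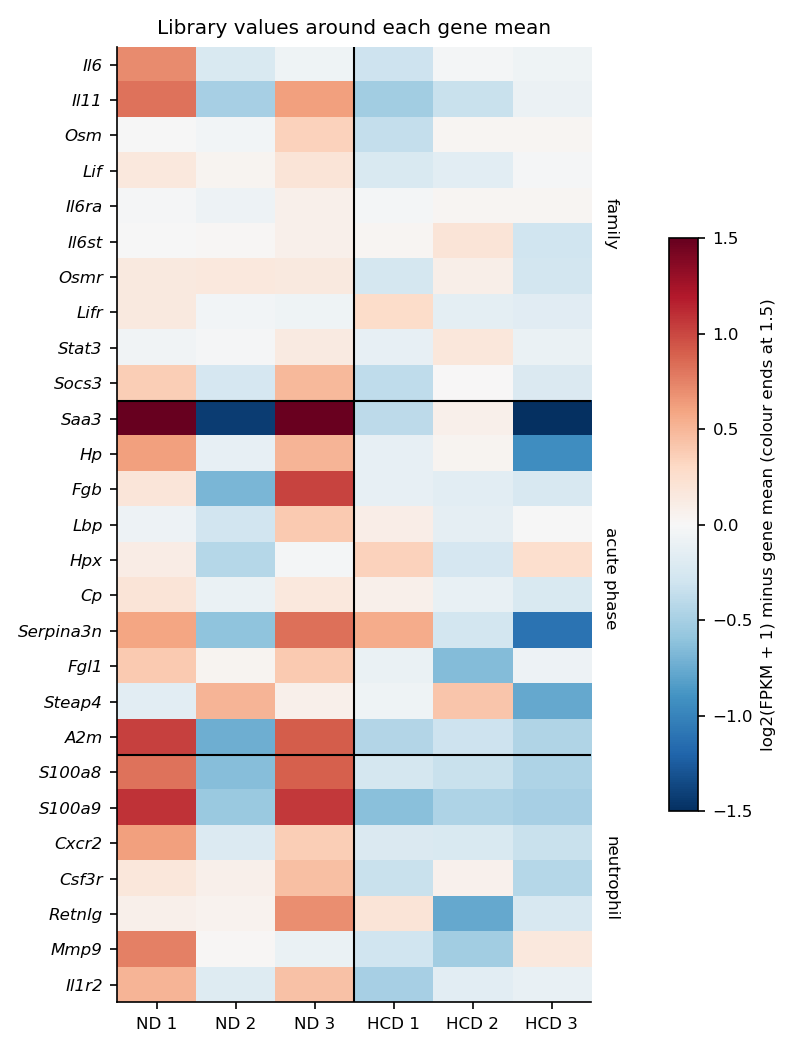
Library values of the 10 family genes, the 10 tested acute phase genes and the 7 tested neutrophil markers as log2(FPKM + 1) minus each gene's mean over the 6 libraries (red above, blue below; colour ends at 1.5). ND 1 and ND 3 are red and ND 2 is blue for Il11, Socs3, Saa3, A2m, S100a8 and S100a9, while Il6ra, Il6st, Lifr and Stat3 are pale in most libraries.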

How the data were processed

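Per the file headers, the authors deposited 1 table of FPKM values, with 1 column for each of the 6 samples. Tools listed in the submitters' processing notes, without roles, are TopHat2 2.0.9, edgeR, CASAVA 1.8 and HTSeq, and the genome is mm10; annotation release and strand setting are not given in the sources used here.

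Limma (3.58.1, in R 4.3.3) fitted diet alone to log2 values with a pseudocount of 1, with a variance trend and two-sided tests, for genes averaging 0.5 FPKM or more, at an adjusted p of 0.05. The same fit was also run on simulated data with known changes, whose outcome is not reported here. FPKM values became whole reads, within 0.02 of a read in all 6 libraries, for 98.6% of 13417 tested genes. The length was searched over a wide range around the sum of distinct GENCODE M21 exons, and it equalled that sum for 67.3% of the genes with whole reads. The same search gave whole reads for 0 of 500 decoys, whose values were scaled at random in each library. Where several lengths gave whole reads, the one nearest to M21 was taken. At 2 kb, 1 FPKM was 40.7 to 52.5 reads. Limma-voom on these reads was an alternative.

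The genes and lists were chosen with earlier results of these data known. All 10 family genes are named. From each pathway list the text names the 3 tested genes with the largest difference and the 3 with the highest mean and from marker lists the 2 highest; for Socs3 and Il6, the 5 most similar genes. Some genes that this rule names are not reported here. Outside this rule, Stat5b, Fgl1, Mrc1, Cdh5, Apoa2, Serpina1a, Ly6g, Cxcr2, Csf3r and Il1r2 were named after their values were seen. So were Mmp9, Retnlg, Crp, Ctf1, Il31, Saa1 and Apcs. Alternatives were a pseudocount of 0.1, no filter, median-ratio scaling, a replicate block, leaving out each library and, chosen after seeing the data, leaving out ND 2 and HCD 1 together.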

Additional observations from a re-analysis of the deposited data

How the results depend on the processing

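S100a9 was called without ND 2 and no gene in any other setting, so the number called with each library left out was 0 to 1. No family gene was called in any setting; limma-voom on recovered reads gave 712 genes an unadjusted p under 0.05 and called 0. Lif, Osmr, Il11, Osm and Socs3 kept a lower mean in HCD in each setting. The Il6 difference was -0.66 with a pseudocount of 0.1 and -0.83 on recovered reads, and ranged from -0.45 to 0.02 with each library left out. Those ranges were -0.02 to 0.06 for Il6ra, which was -0.002 without ND 2 and HCD 1, -0.16 to 0.09 for Il6st, -0.17 to 0.05 for Lifr and -0.14 to 0.01 for Stat3. For the lists, the number of lower means ranged from 1 to 3 for other cytokines, 0 to 1 for other receptors, 2 to 4 for kinases and adaptors and 0 to 3 for shedding genes, where it was 2 without ND 2 and HCD 1. The medians ranged from -0.01 to 0.27 for other cytokines, 0.12 to 0.41 for other receptors, 0.01 to 0.14 for kinases and adaptors, 0.02 to 0.12 for inhibitors, -0.04 to 0.08 for shedding genes, -0.72 to -0.22 for acute phase genes and -0.16 to -0.03 for other STAT3 targets. The other cytokines had a median of 0.31 on recovered reads and 0.06 with no filter on low values. Without that filter 1 other receptor and 15 acute phase genes had a lower mean, and the acute phase median was -0.08. The causes were not tested, except that the last setting adds genes. The labels do not say whether replicate numbers pair the samples. Deviations of same-numbered tumours from their diet means correlated at -0.19, 0.14 and 0.06, which cannot settle it with 3 tumours a diet. With the replicate block 0 genes were called and Socs3 differed by -0.40. Il6, with 8 to 28 reads in 5 libraries, is the gene most limited by depth.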
